A study of Oryza sativa with 4 samples.

Results

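The genes described here are 8 rice regulators of salicylate-dependent immunity, chosen by locus name from the 57995 loci of the study: NPR1, NPR2, NPR3, EDS1, PAD4, ICS1, RAR1 and SGT1. All 8 were present in the data and all 8 passed the filter on low values. The study asked which leaf transcripts of rice respond to S-nitrosocysteine (CysNO), a small S-nitrosothiol that releases nitric oxide and can pass it to protein cysteines. Dongjin seedlings, 7 days old and kept at 23 °C under 16 h of light and 8 h of dark, were irrigated with 5 mM CysNO or, as control, with buffer (1 mM HCl), and leaf RNA of 2 control and 2 CysNO libraries was sequenced. The time between irrigation and harvest is not given in the labels, and none of the 4 libraries had cysteine alone, so nitric oxide and the rest of the molecule cannot be told apart. Whether the 2 libraries of a group stem from different plants is not stated in the labels. The p-values therefore reflect only how far these libraries differ, and that spread may be technical.

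Salicylate is a plant defence hormone. It is made from chorismate, either through isochorismate, the product of isochorismate synthase (ICS1), or through phenylalanine. NPR1 is a transcriptional coactivator with a BTB domain and ankyrin repeats that carries the salicylate signal to defence genes together with TGA transcription factors. In Arabidopsis, S-nitrosylation of NPR1 favours its oligomeric form in the cytosol, and thioredoxin-dependent reduction releases the monomer that enters the nucleus. That control acts on the protein, whereas the values here are transcript levels. EDS1 and PAD4 are lipase-like proteins that pair with each other in Arabidopsis and relay signals from intracellular immune receptors upstream of salicylate. RAR1 and SGT1 are co-chaperones that act with HSP90 on those receptors.

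None of the 8 genes passed the test across all loci, and the largest log2 fold changes were those of NPR3, NPR2 and PAD4, all with higher values in CysNO. Levels are given as FPKM, the number of sequenced fragments relative to transcript length and library size, which corrects for gene length, so levels of different genes can be compared. Over 21123 tested loci, limma's moderated test at a Benjamini-Hochberg adjusted p under 0.05 called 3.27% higher and 0.956% lower in CysNO, against 0 of the 8 genes in either direction. With CysNO 1 left out 0 loci of the whole table passed, and with CysNO 2 left out 1 did. At an unadjusted p under 0.05 the same test counted 3 of the 8, all with higher values in CysNO, where 9.66% of all tested loci were so counted in that direction. The lowest CysNO library exceeded the highest control library in 5 of the 8 genes (NPR1, NPR2, NPR3, PAD4 and SGT1), against 21.5% of all tested loci. The opposite separation was seen in 0 of the 8, against 24.9% of all tested loci. The median log2 fold change of the 8 was 0.45, on the log2(FPKM + 1) scale, and that of all tested loci was -0.014. The 8 genes were chosen with earlier results of these data known, so their counts beside those of all loci are descriptions only. In bulk tissue, a change in the cells that make up the leaf and a change in RNA per cell cannot be told apart.

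Facts of the libraries bear on how firmly these values can be read. Totals per library ran from 687469 to 732401 FPKM, and 20444 to 20770 loci reached 1 FPKM. Read counts are unknown, so no counting interval can be given. Relative to control 1, the modal ratio over 594 low loci gave a depth of 1.07 for control 2, 0.825 for CysNO 1 and 1.08 for CysNO 2. Of 8 loci listed, from general knowledge, as leaf markers (small subunit of Rubisco and light-harvesting proteins), 7 were found, and none was at 0 in any library. Their summed level was 6271 and 4718 FPKM in the control libraries and 3117 and 4547 FPKM with CysNO, so both CysNO libraries lay below both controls. By locus, 3 of the 7 separated in that direction and 4 overlapped, where 24.9% of all tested loci separated so. The 1 locus listed as a root marker, LOC_Os02g44310, read 1.64 and 4.39 FPKM in the controls, 4.47 in CysNO 1 and 96.4 in CysNO 2. The part of either marker set in the results below was not tested. Without CysNO 2, the log2 fold changes of NPR2, NPR3, PAD4 and SGT1 were 0.73, 0.99, 0.51 and 0.58. Those of NPR1, EDS1, ICS1 and RAR1 were 0.38, 0.20, 0.69 and 0.15, where all libraries gave 0.48, 0.14, 0.31 and -0.033.

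**Figure D1:**
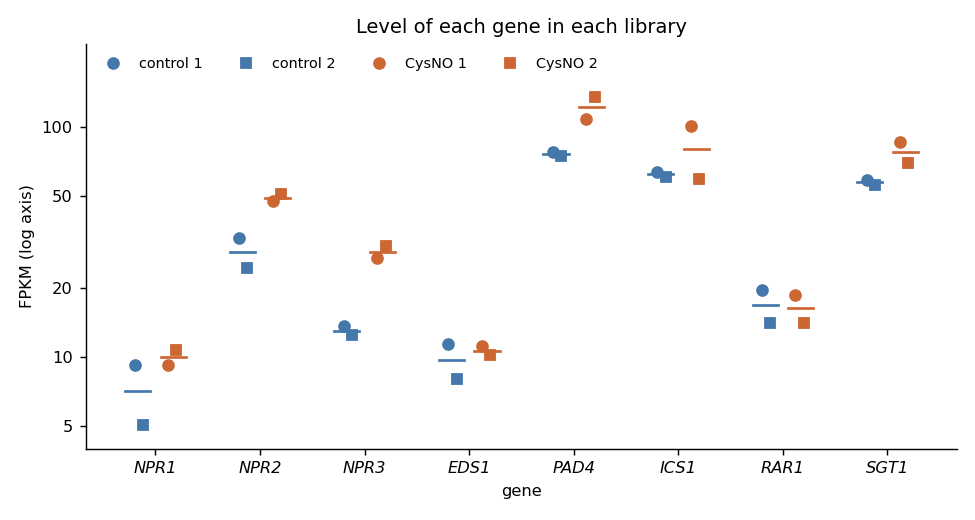
FPKM of each gene (log axis) in the 2 control libraries (blue) and the 2 CysNO libraries (orange), with a bar at each group's mean. NPR2, NPR3, PAD4 and SGT1 are clear of their controls, NPR1 only just (9.23 against 9.24 FPKM), and EDS1, ICS1 and RAR1 overlap.

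The 3 NPR genes all had higher means in CysNO. NPR1 (LOC_Os01g09800, chromosome 1, bases 5059416 to 5064236, minus strand) read 9.23 and 5.06 FPKM in the control libraries and 9.24 and 10.8 FPKM with CysNO. The groups did not overlap, but control 1 and CysNO 1 were nearly equal, and only control 2 lay well below. The means were 7.14 ± 2.95 and 10.01 ± 1.09 FPKM (SD, n = 2). Its log2 fold change was 0.48 with a standard error of 0.34 and a 95% interval from -0.31 to 1.27 (limma, adjusted p = 0.547). Without control 2 it was 0.10, and without control 1 it was 0.86.

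NPR2 (LOC_Os01g56200, chromosome 1, bases 32366639 to 32370772, plus strand) is a paralog of NPR1. It read 33.05 and 24.4 FPKM in the control libraries and 47.7 and 51.1 FPKM with CysNO. Both CysNO libraries were above both controls, and the group means stood at 28.7 ± 6.14 and 49.4 ± 2.43 FPKM (SD, n = 2), a ratio of 1.72. The log2 fold change was 0.78 ± 0.27 (SE), with a 95% interval from 0.15 to 1.41 that lies above 0 before adjustment (limma, adjusted p = 0.183 over all loci).

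NPR3 (LOC_Os03g46440, chromosome 3, bases 26257756 to 26265292, minus strand), another paralog, had the largest fold change of the 8. It read 13.6 and 12.5 FPKM in the control libraries and 26.9 and 30.5 FPKM with CysNO, so the groups were far apart relative to the spread within them. The means were 13.04 ± 0.820 and 28.7 ± 2.52 FPKM (SD, n = 2), a ratio of 2.2. The log2 fold change was 1.08 ± 0.25 (SE; 95% interval 0.49 to 1.68), and it missed the threshold over all loci (limma, adjusted p = 0.0650). With the filter raised to 5 FPKM, which left 14629 loci in the test, NPR3 passed (limma, adjusted p = 0.0471). Of all tested loci, 6.19% had a larger log2 fold change than NPR3, 9.74% one larger than NPR2 and 16.9% one larger than NPR1.

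Summed over the 3 NPR genes, the level was 55.9 and 41.9 FPKM in the control libraries and 83.9 and 92.4 FPKM with CysNO. NPR2 made up most of that sum in every library, with 59.1% and 58.2% in the controls and 56.9% and 55.3% in CysNO. NPR3 made up 24.4% and 29.8% in the controls and 32.1% and 33.02% in CysNO. NPR1 was the smallest part, at 16.5% and 12.1% in the controls and 11.01% and 11.7% in CysNO. The share of NPR3 was thus higher in both CysNO libraries than in both controls, while NPR1 gave the lowest share in every library. These shares are descriptions of 4 libraries, and an exact permutation test of 2 against 2 libraries cannot go below p = 0.33.

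Of the partners EDS1 and PAD4, PAD4 separated the groups and EDS1 did not. PAD4 (LOC_Os11g09010, chromosome 11, bases 4781030 to 4785296, plus strand) read 77.9 and 75.1 FPKM in the control libraries and 109 and 136 FPKM with CysNO. The controls were close together and both CysNO libraries stood above them. Its log2 fold change was 0.66 ± 0.27 (SE; 95% interval 0.033 to 1.29), without passing over all loci (limma, adjusted p = 0.251).

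EDS1 (LOC_Os09g22450, chromosome 9, bases 13558547 to 13562070, plus strand) read 11.5 and 8.06 FPKM in the control libraries and 11.2 and 10.2 FPKM with CysNO. Both CysNO values lay between the controls. The log2 fold change was 0.14 ± 0.29 (SE; limma, adjusted p = 0.882), and its 95% interval from -0.54 to 0.81 leaves room for a fold between 0.687 and 1.76. Without control 2 its sign turned, to -0.094. PAD4 exceeded EDS1 by 6.80 and 9.32 times in the controls and by 9.76 and 13.3 times in CysNO. The ratio was therefore higher in both CysNO libraries than in both controls, with a difference of 0.52 between the group means on the log2 scale.

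ICS1 (LOC_Os09g19734, chromosome 9, bases 11804570 to 11814327, plus strand), for the isochorismate branch of salicylate synthesis, was set apart by a single library. It read 64.1 and 61.0 FPKM in the controls, 101 in CysNO 1 and 59.3 in CysNO 2. CysNO 2 was thus below both controls and CysNO 1 above both. The log2 fold change was 0.31 ± 0.32 (SE; 95% interval -0.44 to 1.06; limma, adjusted p = 0.728), and it was -0.075 without CysNO 1 and 0.69 without CysNO 2.

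Of the co-chaperone genes, SGT1 separated the groups and RAR1 did not. SGT1 (LOC_Os01g43540, chromosome 1, bases 24936621 to 24941861, plus strand) read 59.2 and 55.8 FPKM in the control libraries and 86.2 and 69.6 FPKM with CysNO. The groups did not overlap, and CysNO 1 was the higher of the treated pair. Its log2 fold change was 0.42 ± 0.26 (SE; 95% interval -0.19 to 1.04; limma, adjusted p = 0.477).

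RAR1 (LOC_Os02g33180, chromosome 2, bases 19721250 to 19724020, minus strand) read 19.5 and 14.1 FPKM in the control libraries and 18.6 and 14.1 FPKM with CysNO. The spread within each group was far larger than the distance between the group means, 16.8 ± 3.82 and 16.4 ± 3.16 FPKM (SD, n = 2). The log2 fold change was -0.033 ± 0.29 (SE; limma, adjusted p = 0.977), with a 95% interval from -0.72 to 0.65. It was 0.19 without control 1 and 0.15 without CysNO 2. SGT1 exceeded RAR1 by 3.03 and 3.95 times in the controls and by 4.63 and 4.92 times in CysNO, again without overlap between the groups. For this ratio and that of PAD4 to EDS1, how often other gene pairs separate the groups was not computed.

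**Figure D2:**
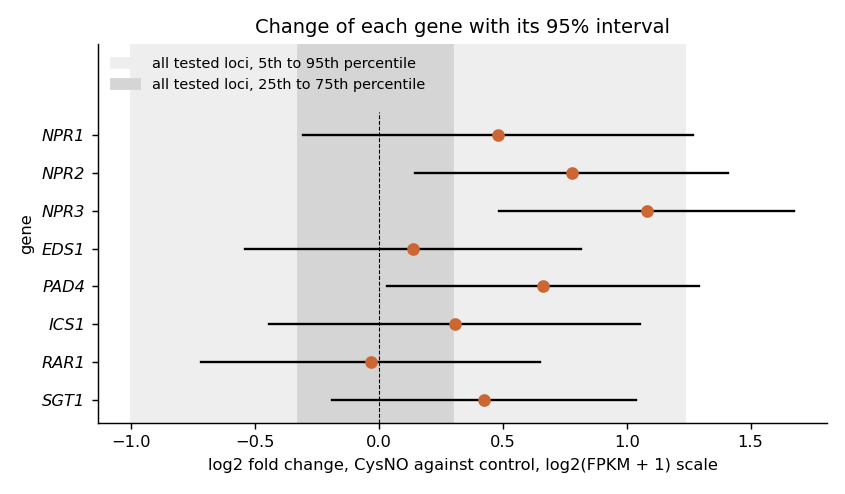
Log2 fold change of each gene (CysNO against control, log2(FPKM + 1) scale) with limma's 95% interval, over bands for all 21123 tested loci. The intervals of NPR3, NPR2 and PAD4 lie above 0 before adjustment for multiple testing, and the other 5 include 0.

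**Figure D3:**
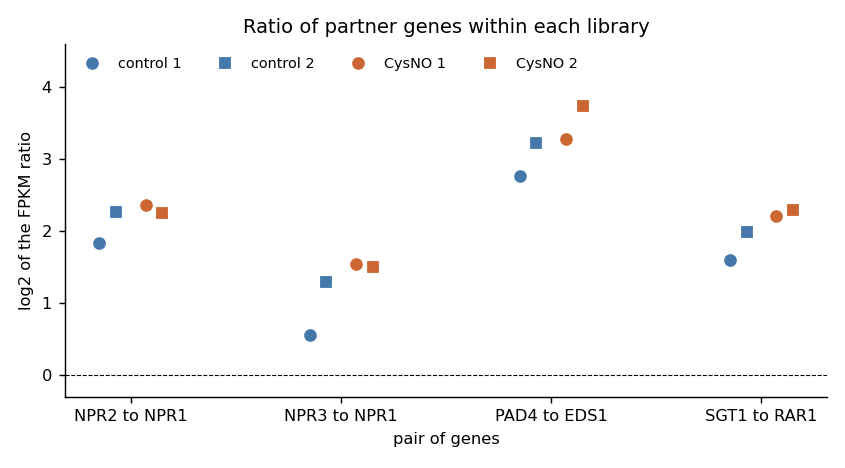
Log2 of the FPKM ratio of paired genes in each library, controls in blue and CysNO in orange. For NPR3 to NPR1, PAD4 to EDS1 and SGT1 to RAR1 both CysNO libraries lie above both controls, while for NPR2 to NPR1 the groups overlap. PAD4 to EDS1 and SGT1 to RAR1 were planned as the inverse ratios. How often the ratios of other gene pairs separate the groups was not computed.

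The 8 genes covered a wide range of levels. In the controls PAD4 was highest, at 76.5 FPKM on average, followed by ICS1 at 62.5, SGT1 at 57.5, NPR2 at 28.7, RAR1 at 16.8, NPR3 at 13.04, EDS1 at 9.76 and NPR1 at 7.14. Each neighbour in that order was separated from the next by non-overlapping libraries, except EDS1 and NPR1, whose values overlapped. In CysNO the order was kept but for 1 exchange, NPR3 at 28.7 FPKM standing above RAR1 at 16.4. There ICS1 overlapped with SGT1, and EDS1 with NPR1. NPR1 was thus the lowest of the 8 by its mean in both groups, although 47.2% of all tested loci had a lower mean over the 4 libraries. The corresponding figure was 94.2% for PAD4.

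No other locus in the files overlaps the span of any of the 8. The nearest neighbour was 166 bases away, beside NPR2, and was listed at 0 FPKM in 3 libraries and at 0.464 FPKM in CysNO 2. The nearest neighbours of NPR3, PAD4 and RAR1 were listed at 0 FPKM in all 4 libraries. How reads shared between the similar NPR genes were divided was not given in these sources.

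The genes most like NPR1 and NPR3 across the 4 libraries were sought among 397 tested loci with a symbol, by the Euclidean distance between log2(FPKM + 1) values centred on their own mean. Closest to NPR3 was bhlh32, of the bHLH transcription factor family, at a distance of 0.0513. It read 18.3 and 16.8 FPKM in the control libraries and 37.3 and 42.1 FPKM with CysNO. EPSPS1, for a shikimate pathway enzyme, followed at 0.173 and REH1 at 0.199. The closest to NPR1 were the Aux/IAA gene iaa18 at 0.173, KS1 at 0.214 and iaa15, another Aux/IAA gene, at 0.228. These distances describe 4 libraries only. Among the 8 genes themselves the closest pair was EDS1 and RAR1, at 0.247, and the most distant was NPR3 and RAR1, at 1.20.

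Around these regulators, 40 further loci in 6 lists were examined, 37 of which could be tested. Of these, 6 rose and 0 fell, where 3.27% of all tested loci were called higher and 0.956% lower. Their median log2 fold change was 0.30, against -0.014 over all tested loci. The lists were chosen with earlier results of these data known, so their counts beside those of all loci are descriptions only. None of the 37 passed without CysNO 1 or without CysNO 2. The groups did not overlap in 16 with higher values in CysNO, against 21.5% of all tested loci, and in 8 with lower values, against 24.9%, so the second count is near that of any set of loci. The files or the gene table give a name for 15 of the 40. The place of the other 25 in a list rests on general knowledge, and they are given by locus only.

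Salicylate synthesis and modification held 5 of the 6 loci that rose. Of its 13 tested loci beside ICS1, 5 rose, 0 fell and 8 did not pass (median log2 fold change 0.40), beside 3.27% of all tested loci called higher and 0.956% called lower. The groups did not overlap in 6 of the 13 with higher values in CysNO and in 4 with lower values. Of all tested loci, 21.5% and 24.9% separated in these directions. LOC_Os02g48770 (chromosome 2, bases 29844503 to 29846682) read 4.59 and 17.8 FPKM in the control libraries and 147 and 141 FPKM with CysNO, which is 3.82 ± 0.52 (SE) as a log2 fold change (limma, adjusted p = 0.0115). The controls differed from each other, yet both were far below CysNO. LOC_Os04g43800 went from 7.15 and 16.2 to 58.6 and 60.7 FPKM (log2 fold change 2.36; limma, adjusted p = 0.0181), and LOC_Os02g41670 from 20.2 and 46.3 to 181 and 140 FPKM (2.34; limma, adjusted p = 0.0243). The remaining ones were PAL5 and ZB8, of the phenylalanine ammonia-lyase family, in which LOC_Os04g43800 and LOC_Os02g41670 were also listed. LOC_Os02g41670 lies close to PAL5 on chromosome 2, and how reads of similar neighbours were divided is not stated. None of the 5 passed with quantile normalization or with median centring, although their log2 fold changes stayed at 1.84 or more. The locus with the most negative log2 fold change, LOC_Os12g33610, was also listed in the ammonia-lyase family. It read 174 and 78.4 FPKM in the control libraries and 26.7 and 46.4 FPKM with CysNO and did not pass (-1.70, limma adjusted p = 0.0825). PAL (LOC_Os02g41630), of the same family, was the most abundant locus of the list. It read 1967 and 1558 FPKM in the control libraries and 787 and 1575 FPKM with CysNO. Its groups overlapped and its log2 fold change was -0.65, so the family did not rise as a whole. The locus that the gene table calls MFP, a name used for multifunctional proteins of β-oxidation, was singled out after its values were seen. It read 25.6 and 23.7 FPKM in the control libraries and 62.2 and 45.5 FPKM with CysNO (limma, adjusted p = 0.0785).

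Of the 7 loci listed as partners of NPR1 or as acting on its turnover and redox state, 0 passed in either direction (limma), with a median log2 fold change of 0.44. Of all tested loci, 3.27% were called higher and 0.956% lower. The groups did not overlap in 4 of the 7, all with higher values in CysNO, against 21.5% of all tested loci. The most abundant, the thioredoxin h gene OsTrxh1, read 387 and 315 FPKM in the control libraries and 613 and 577 FPKM with CysNO. Its groups did not overlap, and its log2 fold change was 0.77 ± 0.33 (SE; limma, adjusted p = 0.280). LOC_Os01g03940, singled out after its values were seen, had the list's largest log2 fold change, 0.94 ± 0.27 (SE; limma, adjusted p = 0.113). It read 11.1 and 9.46 FPKM in the control libraries and 22.6 and 18.6 FPKM with CysNO. The TGA factor genes TGA2.1 and TGA2.2 had log2 fold changes of 0.44 and 0.20. LG2, listed with them as a TGA-type gene, had one of -0.062, and its groups overlapped. TGA2.1 overlapped between groups, while TGA2.2 read 22.4 and 23.6 FPKM in the control libraries and 27.6 and 25.5 FPKM with CysNO.

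The 3 loci listed as the BOP branch of the NPR family, which in Arabidopsis shapes leaves and flowers, had lower values in both CysNO libraries than in both controls, a separation seen in 24.9% of all tested loci. None passed (limma, adjusted p from 0.0538 to 0.255), and at an unadjusted p under 0.05 all 3 were counted, where 8.39% of all tested loci were so counted in that direction. LOC_Os01g72020, the most abundant, read 22.9 and 20.5 FPKM in the control libraries and 13.03 and 13.6 FPKM with CysNO, a log2 fold change of -0.66. LOC_Os11g04600, singled out after its values were seen, read 10.6 and 9.80 FPKM against 3.22 and 4.03, a log2 fold change of -1.28. The list's median was -0.68, whereas NPR1, NPR2 and NPR3 had positive log2 fold changes. The difference between these branches was not tested.

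Of 3 WRKY loci listed for the salicylate pathway, 1 rose, where 3.27% of all tested loci were called higher. It was WRKY62, at 27.1 and 27.0 FPKM in the control libraries and 118 and 95.9 FPKM with CysNO (log2 fold change 1.94, limma adjusted p = 0.0108). The other 2, LOC_Os05g25770 and LOC_Os01g54600, had log2 fold changes of 0.38 and 0.23 and did not pass. Of the 3 loci listed as defence outputs, 0 passed (limma), 0 had an unadjusted p under 0.05 and all 3 overlapped between groups. Of all tested loci, 3.27% were called higher and 0.956% lower, and 18.1% had an unadjusted p under 0.05. The groups separated in 21.5% with higher and in 24.9% with lower values in CysNO. Counts over 3 loci therefore cannot show whether defence outputs respond. The most abundant, LOC_Os12g36880, read 1336 and 1818 FPKM in the controls, 1612 in CysNO 1 and 489 in CysNO 2.

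Among 10 loci listed as partners of RAR1 and SGT1, 8 were tested and 0 passed in either direction (limma), with a median log2 fold change of 0.33. Of all tested loci, 3.27% were called higher and 0.956% lower. The other 2 of the 10 were listed at 0 in every library. RACK1A, a scaffold protein gene and the most abundant, read 251 and 240 FPKM in the controls, 395 in CysNO 1 and 188 in CysNO 2, so that CysNO 1 was above and CysNO 2 below both controls, as for ICS1. The HSP90 gene HSP81-1, singled out after its values were seen, read 35.5 and 42.6 FPKM in the control libraries and 81.3 and 86.9 FPKM with CysNO. Its log2 fold change was 1.09 ± 0.26 (SE), with an adjusted p of 0.0650 (limma). The more abundant HSP90 gene HSP81-2, likewise singled out, changed less. It read 216 and 221 FPKM in the control libraries and 284 and 273 FPKM with CysNO (log2 fold change 0.35, limma adjusted p = 0.624). Rac1, for a small GTPase of rice immunity, read 10.4 and 13.5 FPKM in the control libraries and 7.61 and 7.98 FPKM with CysNO, without passing (limma, adjusted p = 0.368); it was also singled out after its values were seen.

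**Figure D4:**
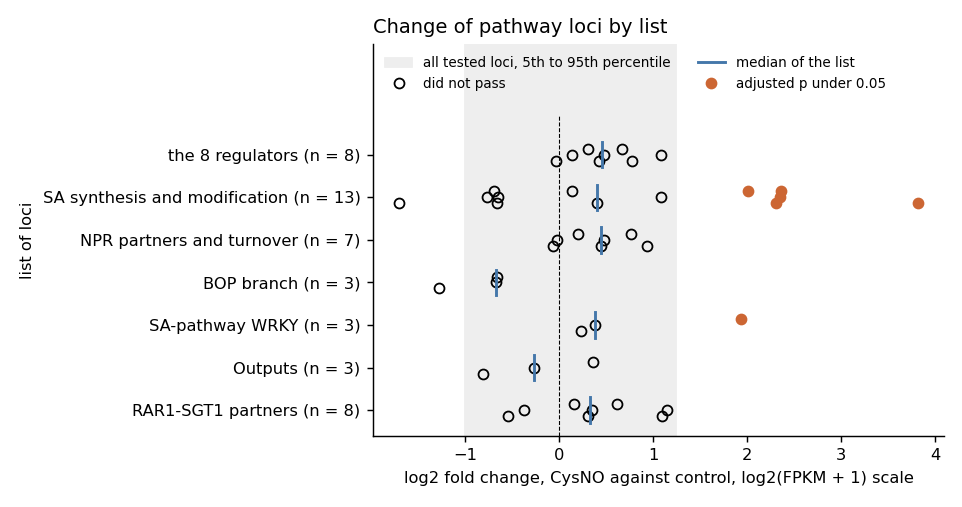
Log2 fold change of each tested locus (circles) by list, with the list's median as a blue bar and the range of the 5th to the 95th percentile of all tested loci in grey. Filled circles passed at an adjusted p under 0.05: 5 in salicylate synthesis and modification, 1 among the WRKY loci, and none among the 8 regulators.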

How the data were processed

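Per the file headers, each library has a single FPKM value for every locus, computed by the authors, together with the coordinates used here. Bowtie 0.12.2 and mm8, a mouse build that does not match rice, are given in the submitters' processing notes. The rice build, annotation release, counting program, strand setting and filters are not stated. The labels' protocols describe oligo(dT) selection, fragmentation and 100 bp read pairs, and speak of triplicate leaf samples, while each group has 2 libraries here.

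A locus entered the test if 2 or more libraries reached 1 FPKM. Values were put on the scale log2(FPKM + 1) and fitted by limma (version 3.58.1; R version 4.3.3; mean-variance trend, two-sided), CysNO against control. Adjustment (Benjamini-Hochberg, threshold 0.05) was over all tested loci, and the rows of the 8 genes were read from that fit, which has 2 residual and 5.36 prior degrees of freedom. The code was tested on simulated data. A fold change on this scale understates that of low loci.

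The 8 genes and the lists were chosen with earlier results of these data known. By rule, the text names all 8, up to 3 passing loci per list (or the most abundant), and the 3 symbols most like NPR1 and the most changed gene. The names of the 8 come with their locus names. The RefSeq gene table for ASM3414082v1, a rice assembly, lists 5 of them on the same chromosome, 3 with a span within 10% (NPR1, RAR1, SGT1). NPR2 and NPR3 differ more, and EDS1, PAD4 and ICS1 were not matched by name. Sequences were not used here.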

Additional observations from a re-analysis of the deposited data

How the results depend on the processing

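Other scalings (median centring, quantile normalization), filters (none, 5 FPKM), a pseudocount of 0.1, a replicate block, no mean-variance trend, an adjusted p under 0.01 and each library left out were tried. Of the 8 regulators, 0 passed in each of these except with the filter of 5 FPKM, where 1 passed (NPR3). NPR1, NPR2, NPR3, PAD4 and SGT1 kept a positive log2 fold change throughout, from 0.99 to 1.17 for NPR3 and from 0.10 to 0.86 for NPR1. With a library left out the sign turned for EDS1 (-0.094 without control 2 to 0.37), for ICS1 (-0.075 without CysNO 1 to 0.69) and for RAR1 (-0.25 to 0.19, above 0 without control 1 and, at 0.15, without CysNO 2). Over all loci 893 passed. That count was 480 with quantile normalization, 449 with median centring, 2 with no filter, 186 at an adjusted p under 0.01, and from 0 to 1300 with a library left out, the 0 without CysNO 1. A lone library takes its spread from the other group. Of the 37 pathway loci, 6 passed, against 1 with quantile normalization, 1 with median centring, 0 with no filter, 0 at an adjusted p under 0.01 and, with a library left out, from 0 to 7. The causes were not tested. Deviations of same-numbered libraries correlated at -0.186 across loci, which cannot show whether those libraries were handled together. With the replicate block 55 loci, 0 of the 8 regulators and 0 pathway loci passed. With the crossed block, which pairs opposite numbers and was added after the data were seen, 2831 loci, 1 regulator and 12 pathway loci passed. With 2 libraries a group, a negative correlation of same numbers is a positive one of opposite numbers. The counts with that block therefore do not stand apart from the correlation. Of the calls 77.4% were higher ones, against 96.4% with the replicate block, 92.5% at an adjusted p under 0.01, 62.8% without control 2 (816 higher, 484 lower) and 57.4% with the crossed block (1625 higher, 1206 lower). Depth in reads is unknown, so precision rests on the spread of 2 libraries a group.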
